A study of Sus scrofa with 18 samples.

Results

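The expression of 10 genes that are used as markers of cerebellar neurons or of their precursors was followed in the brain of pig fetuses. GABRA6, CBLN1, CBLN3, RORA, CALB1, PCP2, ZIC1, ZIC2, ZIC4 and BARHL1 were chosen by symbol, and all 10 were found among the 31908 genes of the gene-wise count table, so that none was missing. Whole brains were dissected from untreated fetuses of Landrace x Large White gilts bred to LR-M6 boars by artificial insemination, on gestation day (GD) 45, 60 or 90, and each of the 6 groups of sex and day holds 3 fetuses (female GD45, male GD45, female GD60, male GD60, female GD90 and male GD90). Replicates carry the piglet numbers of the labels. RNA of a whole brain mixes the cerebellum with all other regions, and in such bulk samples fewer cells of a type and less RNA per cell cannot be told apart.

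The cerebellum arises from the dorsal hindbrain next to the midbrain. Granule cells, its excitatory neurons, come from the upper rhombic lip and multiply in an external layer late in fetal life and after birth, while the inhibitory Purkinje cells come from the ventricular zone and are born earlier. BARHL1 is a homeobox transcription factor of rhombic lip derivatives, and ZIC1, ZIC2 and ZIC4 are zinc finger transcription factors of granule cell precursors. CBLN1 and CBLN3 encode secreted synaptic proteins of granule cells, and GABRA6 the GABA-A receptor subunit that marks mature granule cells. PCP2 and CALB1 mark Purkinje cells, where RORA encodes a nuclear receptor needed for their maturation. Several of these genes are also used elsewhere in the brain, among them RORA and ZIC1 in the thalamus, CALB1 in many interneurons and ZIC genes in the dorsal midline and the meninges. A change in such a gene need not be one of the cerebellum.

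ZIC1 and ZIC4 are neighbours on chromosome 13 of the Sscrofa11.1 genome and are read in opposite directions. In the deposited tables ZIC4 spans chr13:87722067-87742262 on the minus strand and ZIC1 spans chr13:87745751-87749403 on the plus strand, whereas the RefSeq annotation of the same build starts ZIC4 at base 87740724 and ZIC1 at base 87740769. The 44 bases between these RefSeq starts, chr13:87740725-87740768 on the plus strand, are shown because the levels of both genes are set side by side later. Capitals mark AGGTCA and CAGCTG, searched on both strands.
ZIC4-ZIC1 gap: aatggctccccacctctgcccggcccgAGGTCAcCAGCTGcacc
AGGTCA was present in 12.3% and CAGCTG in 13.5% of the 20664 windows of 250 bases upstream of RefSeq gene starts, which are longer than this gap, and both matches are given as a description.

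The coding exons of 120 bases in CBLN1 (chr6:35516516-35516635, plus strand) and CBLN3 (chr7:74866632-74866751, plus strand) were identical at 75 bases (62.5%), with a longest run of 7. They are shown because these members are related in sequence, and capitals mark the bases that differ.
CBLN1: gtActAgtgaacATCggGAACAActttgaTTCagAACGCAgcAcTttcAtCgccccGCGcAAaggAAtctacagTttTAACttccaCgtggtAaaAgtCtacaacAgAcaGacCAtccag
CBLN3: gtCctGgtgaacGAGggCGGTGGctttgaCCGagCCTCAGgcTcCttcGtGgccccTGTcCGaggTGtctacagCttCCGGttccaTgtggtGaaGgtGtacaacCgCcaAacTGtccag
PCP2 has 3 annotated transcripts, which share 2 exons with the same bounds, at chr2:71518073-71518187 and chr2:71518436-71518560 on the plus strand. A last exon from base 71519209 ends at base 71519399 in 2 transcripts and at base 71519392 in 1. The exon-wise counts hold 0 reads for either form. These forms overlap, and how reads shared by overlapping exons were counted is not given in the sources used here. The exon-wise counts hold 524 of the 971 gene-wise reads of PCP2, so the 0 does not show that the last exon is without reads. The 2 exons with the same bounds are shown because reads on them set 2 libraries apart.
PCP2, the first of these exons: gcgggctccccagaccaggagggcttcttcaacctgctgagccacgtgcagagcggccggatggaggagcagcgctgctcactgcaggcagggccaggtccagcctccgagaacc
PCP2, the other: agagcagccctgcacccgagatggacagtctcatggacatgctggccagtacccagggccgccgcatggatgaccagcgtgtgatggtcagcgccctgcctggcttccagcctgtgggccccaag
The remaining members lie at chr16:61856212-61872359 on the minus strand (GABRA6) and, on the plus strand, at chr6:35515754-35519518 (CBLN1), chr7:74864114-74868445 (CBLN3), chr1:110719190-111477703 (RORA), chr4:46701045-46725198 (CALB1), chr2:71471616-71519399 (PCP2), chr11:68840830-68846470 (ZIC2) and chr1:272373571-272381441 (BARHL1).

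Libraries held 15118843 to 19729783 counts (median 16413097). Levels are given as CPM, the counts divided by the library size that TMM scaling gives and brought to a common total, and 3 counts, the limit that a count of 0 allows, stand at 0.233 CPM or less in every library. Of the 31908 genes, 16325 passed the filter on low counts, and 9 of the 10 members were among them. Male GD45 replicate 17 stood apart from the libraries of its day over all genes, being the highest of the 6 for 35.5% of the tested genes and the lowest for 36.2%, and had the lowest TMM factor of the series (0.849). The labels give litter sizes but not litters, and within a day each litter size occurs in 1 female and 1 male.

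ZIC1 was the most abundant member per length, with a mean of 42.1 FPKM over the 18 libraries, a level scaled by library size and by the length of the gene. CBLN1 (21.6 FPKM), ZIC2 (17.7 FPKM), ZIC4 (9.13 FPKM), BARHL1 (7.21 FPKM) and CALB1 (4.97 FPKM) followed. PCP2 (2.02 FPKM), CBLN3 (0.612 FPKM) and RORA (0.410 FPKM) were low, and GABRA6 averaged 0.143 FPKM.

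GABRA6 did not pass the filter on low counts over the 18 libraries, and was thus not among the 9 members tested. No read was counted on it in 10 of the 18 libraries, and 6 others had between 1 and 7 reads. The remaining ones were female GD90 replicate 2, with 21 reads (1.26 CPM), and male GD90 replicate 1, with 44 reads (2.58 CPM). The other 4 brains at GD90 had 0, 0, 2 and 4 reads, so the marker of mature granule cells stood clear of the low counts in 2 brains only, both from GD90 and both with a labelled litter size of 10. It entered the edgeR test with no filter on low counts and in 16 of the 18 fits that left out 1 library. From GD60 to GD90 over both sexes GABRA6 was then called, with a log2 fold change of 3.85 (adjusted p = 0.0115, edgeR) with no filter and of 3.57 to 5.20 (adjusted p of 0.0100 to 0.0470) with 1 library left out. In males it was called in 2 of these 16 fits, and in females in none. In the other 2 fits, without female GD90 replicate 2 or without male GD90 replicate 1, it did not pass the filter, so that each call rested on the reads of these 2 brains.

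**Figure D1:**
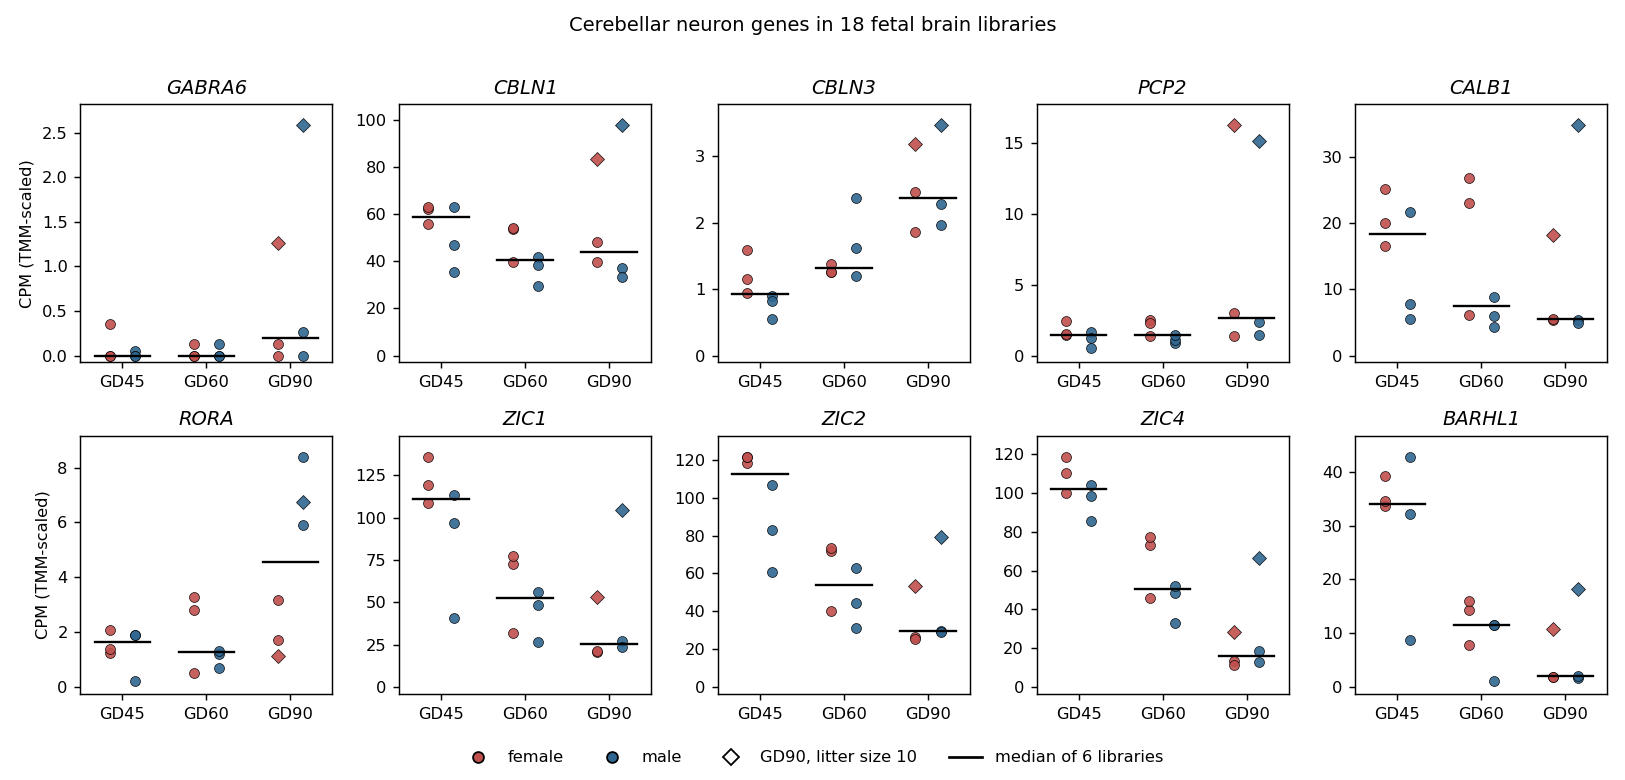
Each panel plots the CPM of 1 gene on the vertical axis for each of the 18 libraries by gestation day, in red for females and blue for males, with a bar at the median of the 6 libraries of a day. The diamonds, female GD90 replicate 2 and male GD90 replicate 1, lie above the other 4 GD90 libraries in 9 of the 10 panels, and RORA is the exception.

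The same 2 brains stood out at GD90 for most members. Both were above all 4 other libraries of that day for 9 of 10 members, which held for 6.65% of all tested genes in the same comparison. These libraries were singled out after their values were seen, so no test is given for their difference from the others. Among the other 8 pairs of libraries that share a day and a litter size, both were above the other 4 for 3 members in the pair of litter size 16 at GD45 and for none in the remaining 7 pairs.

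PCP2, a small regulator of G protein signaling in Purkinje cells, also separated the 2 brains. It reached 16.2 CPM in female GD90 replicate 2 and 15.2 CPM in male GD90 replicate 1, while the others of that day had 1.39, 1.44, 2.34 and 2.98 CPM. At GD45 the lowest, median and highest of the 6 libraries were 0.501, 1.47 and 2.45 CPM, and at GD60 they were 0.866, 1.42 and 2.51 CPM. Apart from these 2 brains, the libraries of GD90 overlapped those of the earlier days.

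Reads on the exons of PCP2 were located in part outside the shared exons. The whole gene had 271 reads in female GD90 replicate 2 and 258 in male GD90 replicate 1. Its annotated first exon (chr2:71471616-71471821) carried 2 to 15 reads in every library, with 10 and 8 in the 2 brains. The 2 shared exons shown above carried 102 reads in female GD90 replicate 2 and 107 in male GD90 replicate 1, against 5 to 13 in the other 4 GD90 libraries, 2 to 14 at GD45 and 1 to 7 at GD60. The gene-level counts of PCP2 outside the 2 brains (8 to 48 reads) therefore rested partly on an exon whose reads did not separate the libraries.

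**Figure D2:**
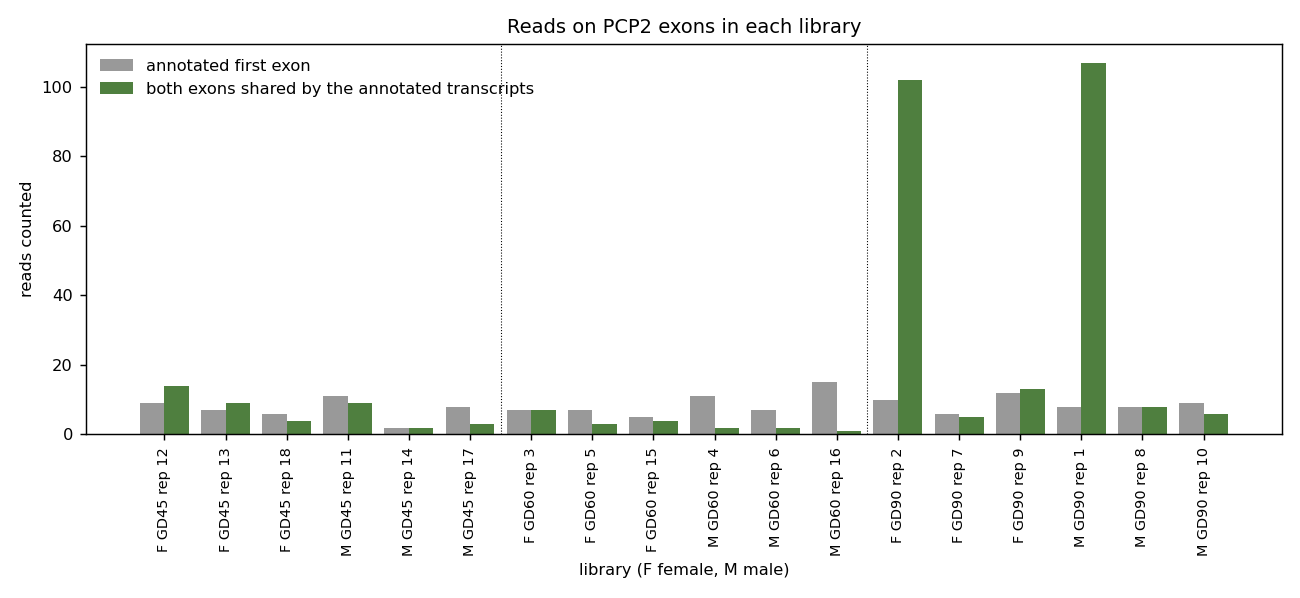
Reads counted on PCP2 (vertical axis) in each of the 18 libraries, on the annotated first exon (grey bars) and on both exons that its 3 transcripts share with the same bounds (green bars). Dotted lines part the gestation days. Shared exons hold 102 and 107 reads in female GD90 replicate 2 and male GD90 replicate 1 and at most 14 elsewhere.

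CALB1, the calcium buffer calbindin, had 34.8 CPM in male GD90 replicate 1 and 18.2 CPM in female GD90 replicate 2, and the other 4 libraries of that day lay close together at 4.92 to 5.56 CPM. At GD60 it split the libraries in another way, with 26.8 and 23.1 CPM in female replicates 3 and 5 and 4.35 to 8.83 CPM in the rest. At GD45 male replicates 14 and 17 had 7.71 and 5.52 CPM and the others 16.6 to 25.1 CPM. High and low brains thus occurred at each day, and the range at GD90 overlapped those of GD45 and GD60.

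CBLN1, which links granule cell axons to Purkinje cell dendrites, changed less between days than between these brains. Its lowest, median and highest levels were 35.5, 59.1 and 63.1 CPM at GD45, 29.6, 40.8 and 54.4 CPM at GD60 and 33.5, 44.0 and 98.0 CPM at GD90. Both upper values at GD90 came from male replicate 1 (98.0 CPM) and female replicate 2 (83.5 CPM), and the next highest was 48.1 CPM. CBLN3, a partner of CBLN1 in granule cells, had medians of 0.920, 1.32 and 2.37 CPM at GD45, GD60 and GD90. Its range at GD90 (1.85 to 3.47 CPM) lay above that at GD45 (0.544 to 1.58 CPM) and overlapped that at GD60 (1.20 to 2.37 CPM) through male GD60 replicate 16. How many of all genes had separate ranges at GD45 and GD90 was not counted.

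RORA followed another order. At GD90 the 3 males had 5.91, 6.75 and 8.40 CPM and the 3 females 1.14, 1.72 and 3.18 CPM, with no overlap between the sexes. How many of all genes had no such overlap was not counted. Female GD90 replicate 2, high for the other members, was the lowest for RORA. At GD60 female replicates 3 and 5 had 3.29 and 2.82 CPM and the other 4 libraries 0.522 to 1.31 CPM. At GD45 male replicate 17 had 0.233 CPM, equal to 3 reads, and the others 1.22 to 2.07 CPM.

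The ZIC genes had lower medians at each later day. ZIC1 had lowest, median and highest levels of 40.9, 111 and 136 CPM at GD45, 26.3, 52.3 and 77.5 CPM at GD60 and 20.4, 25.4 and 105 CPM at GD90. For ZIC2 the values were 60.9, 112 and 122 CPM, 31.2, 53.7 and 73.5 CPM, and 25.6, 29.5 and 79.2 CPM. ZIC4 went from 85.8, 102 and 119 CPM over 33.2, 50.4 and 77.2 CPM to 11.2, 16.1 and 66.3 CPM. All 6 libraries of GD45 had more ZIC4 than any of GD60, whereas the GD90 range of each of the 3 genes overlapped that of GD60. How many of all genes had separate ranges at GD45 and GD60 was not counted. Male GD90 replicate 1 gave each of the 3 highest values at GD90, and female GD90 replicate 2 gave the next (53.3 CPM for ZIC1, 53.3 CPM for ZIC2 and 28.4 CPM for ZIC4).

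ZIC4 counts relative to ZIC1 counts were lower at GD90 than before. The median ratio was 0.959 on GD45, with a range of 0.812 to 2.10, and 1.04 on GD60, with a range of 0.863 to 1.44. On GD90 it was 0.584, ranging from 0.477 to 0.794. All 6 ratios at GD90 lay below all 12 of the earlier days, and the 2 brains with the highest levels were within the range of the other 4. ZIC2 relative to ZIC1 had medians of 0.981, 1.05 and 1.14 at the same days, with overlapping ranges. Ratios of other gene pairs were not computed, so how often such a separation of days occurs is not known.

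**Figure D3:**
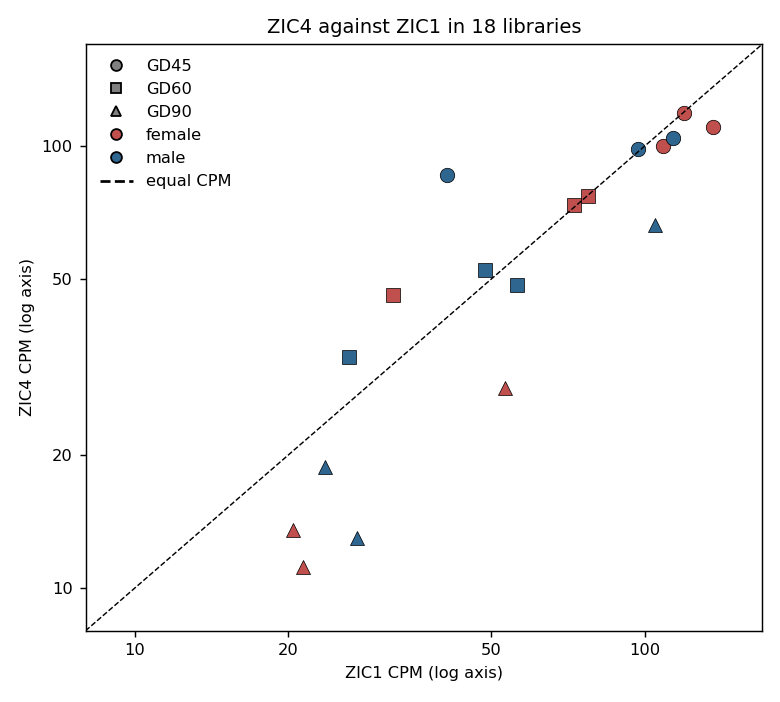
ZIC4 CPM (vertical axis) against ZIC1 CPM (horizontal axis) in the 18 libraries, on log axes, with circles for GD45, squares for GD60 and triangles for GD90, females in red and males in blue. The 6 GD90 libraries lie below the dashed line of equal CPM, and the circle far above it is male GD45 replicate 17.

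BARHL1 had the steepest decline in median of the 10 genes, from 34.1 CPM on GD45 over 11.5 CPM on GD60 to 2.01 CPM on GD90, with wide ranges. At GD45 male replicate 14 had 8.71 CPM and the others 32.2 to 42.8 CPM, and at GD60 male replicate 16 had 1.09 CPM and the others 7.78 to 16.0 CPM. At GD90 male replicate 1 had 18.2 CPM and female replicate 2 had 10.8 CPM, while the other 4 brains had 1.60 to 2.10 CPM. Both high GD90 brains were thus within or above the range of the 5 higher GD60 libraries, and the other 4 were below it.

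The spread of members between libraries of the same sex and day was large among all genes. The within-group standard deviation of log2 CPM was 1.35 for BARHL1, larger than that of all but 67 of the 16325 tested genes, followed by 1.10 for PCP2, 1.02 for CALB1, 0.89 for RORA and 0.76 for ZIC1. It was smallest for CBLN3 (0.35) and CBLN1 (0.47). The median was 0.76 over the 9 members that passed the filter and 0.28 over all tested genes.

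At GD60 the brains of litter size 8, female replicate 15 and male replicate 16, were both below the other 4 libraries for 5 of 10 members, and over all tested genes this held for 10.7%. Female replicates 3 and 5, from litters of 13 and 15, were above the day's median for 9 of 10 members each, and replicate 15 for none. At GD45 the same count was 1 of 10 in male replicates 14 and 17 and 6 or 7 in the other 4 libraries. Each day thus held libraries that were high or low for many members together. Counts above the day's median were not made over all genes, so whether they are particular to the members is not known.

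**Figure D4:**
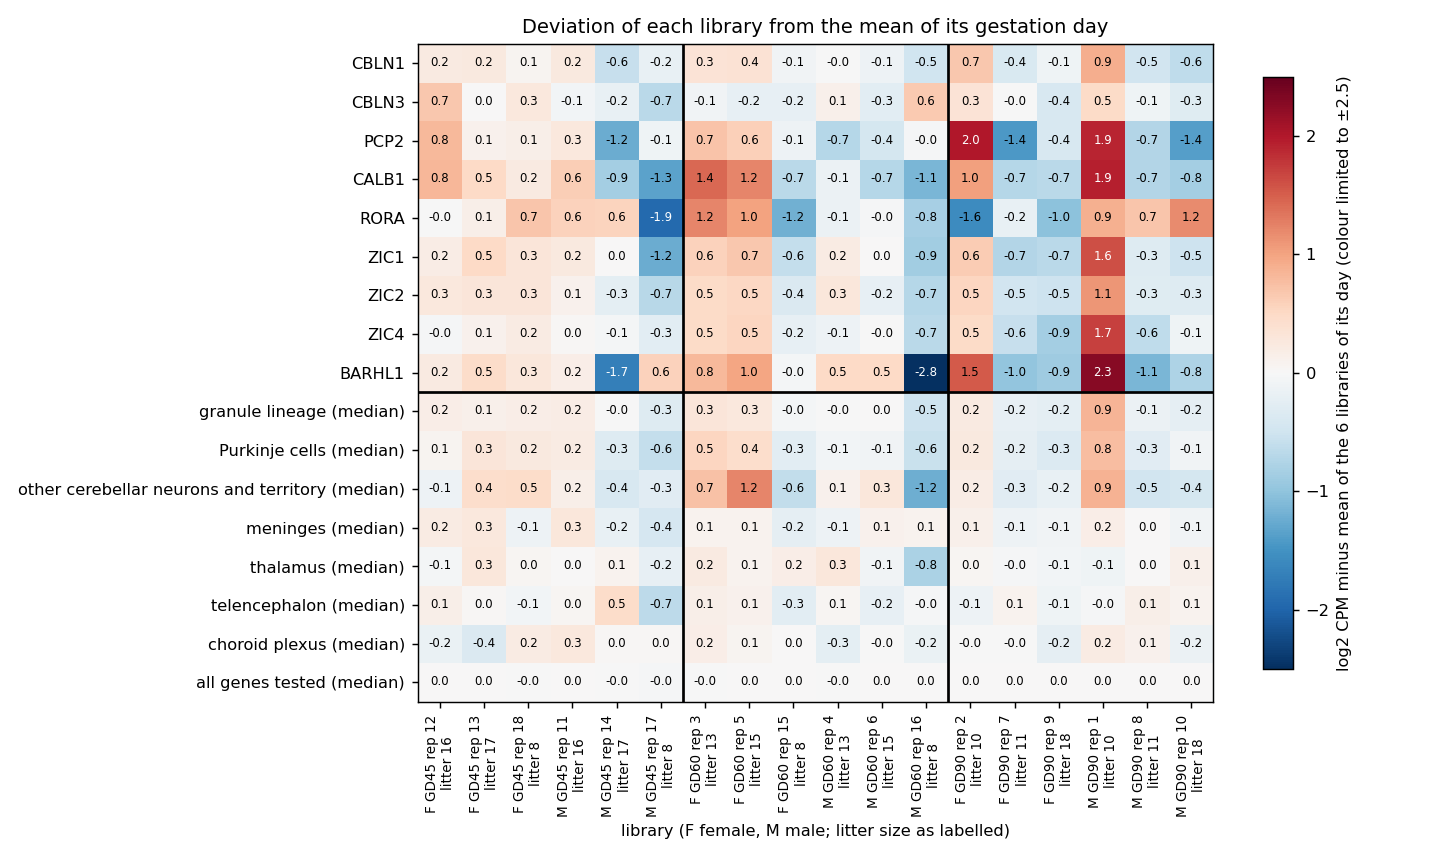
Rows are the 9 tested members and, below the line, medians of gene lists and of all tested genes. Columns are the 18 libraries, and colours and figures give log2 CPM minus the mean of the 6 libraries of the same day. The hindbrain and spinal cord, erythroid and paralog lists are not drawn. Values of female GD90 replicate 2 and male GD90 replicate 1 are above 0 for each member except RORA in the former, and the medians over all genes are close to 0.

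Other genes of cerebellar neurons were taken from 3 lists, of the granule cell lineage (12 genes), Purkinje cells (14 genes) and other cerebellar neurons with the territory around them (12 genes). Female GD90 replicate 2 and male GD90 replicate 1 were both above the other 4 libraries for 6, 8 and 6 genes of these lists. EN2, a homeobox gene of the midbrain-hindbrain boundary, had 22.2 CPM in male replicate 1 and 10.7 CPM in female replicate 2, and 1.12 to 2.28 CPM in the other 4. CA8, a Purkinje cell regulator of the IP3 receptor, had 34.7 and 26.5 CPM against 13.9 to 15.3 CPM.

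SKOR2 and ATOH1 were highest in male GD90 replicate 1 among the libraries of that day. SKOR2, a transcriptional corepressor of young Purkinje cells, had 3.00 CPM in male GD90 replicate 1, 0.479 CPM in female replicate 2 and at most 0.199 CPM in the other 4. ATOH1, the bHLH factor of the rhombic lip, had 1.82 CPM in the male, 0.300 CPM in the female and at most 0.0663 CPM in the rest. The examples of this and the last paragraph were chosen after their values were seen.

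Markers of other tissues were compared in the same libraries. Both GD90 brains were above the other 4 for none of 7 thalamus and none of 8 telencephalon genes, 3 of 8 meninges genes, 1 of 6 choroid plexus genes, 1 of 14 hindbrain and spinal cord genes in the table and none of 6 erythroid genes. The summed level of the hindbrain and spinal cord list, mostly HOX genes, was 0.779 CPM in female replicate 2 and 1.47 CPM in male replicate 1, and 0.199 to 0.493 CPM in the other 4. These sums rest on few reads, as 3 counts of a single gene stand at 0.176 to 0.199 CPM in the GD90 libraries. They are near the limit of counting. The meninges list summed to 1065 and 1204 CPM against 953 to 1060 CPM. Brain weights as labelled were 18.52 and 17.58 for these fetuses and 18.93 to 20.489 for the others, with the unit given as mg. The part of these lists, of the tissue taken at dissection and of the litter in the result was not tested.

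The hindbrain and spinal cord list also differed between libraries of the earlier days. It summed to 108, 45.2 and 27.1 CPM in female GD45 replicates 13 and 18 and male GD45 replicate 11, and to 0 CPM in male GD45 replicate 14, female GD60 replicate 15 and male GD60 replicate 16, which were low for many members. It stood at 9.03 CPM in female GD45 replicate 12, a brain that was high for PCP2 and CALB1, and at 4.27 CPM in male GD45 replicate 17. At GD60 it was 3.83 CPM in female replicate 3, 1.76 CPM in female replicate 5, 1.73 CPM in male replicate 4 and 1.32 CPM in male replicate 6. How far the hindbrain was included in each dissected brain is not given in the sources used here, and its part in the levels was not tested.

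The change of the members from GD45 to GD60 was tested next, to ask how the brain's expression program develops in each sex. None of the 9 members tested differed between GD45 and GD60 in females, where 7.22% of all tested genes were called, nor in males, where 5.61% were called (edgeR quasi-likelihood test, adjusted p under 0.05), and DESeq2 called none either. At an unadjusted p under 0.05 there were 1 and 3 members by edgeR, beside 3500 and 2960 of the 16325 tested genes. Over both sexes ZIC2 fell by 0.91 on the log2 scale (SE 0.27, adjusted p = 0.0290, edgeR) and was the only member called, beside 16.7% of all genes. ZIC4 had a log2 fold change of -0.92 (SE 0.31, adjusted p = 0.0529, edgeR), ZIC1 one of -0.97 (adjusted p = 0.0917) and BARHL1 one of -1.64 (SE 0.61, adjusted p = 0.0764). The call of ZIC2 was lost, with adjusted p of 0.0523 to 0.0745, when any of female GD45 replicates 13 or 18, male GD45 replicate 11, female GD60 replicate 15 or male GD60 replicates 6 or 16 was left out.

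Without the 2 high GD90 brains, which enter this comparison only through the shared estimate of the spread and the filter, ZIC1, ZIC2, ZIC4 and BARHL1 passed the threshold over both sexes, with 14.6% of all genes. The log2 fold changes were -0.97, -0.91, -0.92 and -1.65, nearly those of the whole set, and the standard error of ZIC4 was 0.15 in place of 0.31. These libraries were left out because of their levels of the members, which by itself lowers the spread, so the added calls are a description and no test.

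From GD60 to GD90, 2 of the 9 members were called in females, where 27.1% of all genes were. CBLN3 rose by 0.94 on the log2 scale (SE 0.33, adjusted p = 0.0444, edgeR) and ZIC4 fell by 1.88 (SE 0.46, adjusted p = 0.00596). In males, where 34.5% of all genes were called, the 2 members called were RORA, which rose by 2.69 (SE 0.61, adjusted p = 0.00304, edgeR), and PCP2, which rose by 2.47 (SE 0.87, adjusted p = 0.0364). PCP2 was not called without male GD90 replicate 1 (log2 fold change 0.74, adjusted p = 0.503), nor without any of the 3 GD60 males (adjusted p of 0.0779 to 0.102). CBLN3 in females was not called when any of 9 libraries other than female GD90 replicate 2 was left out singly (adjusted p of 0.0501 to 0.111), nor without that library (0.73, adjusted p = 0.192).

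**Figure D5:**
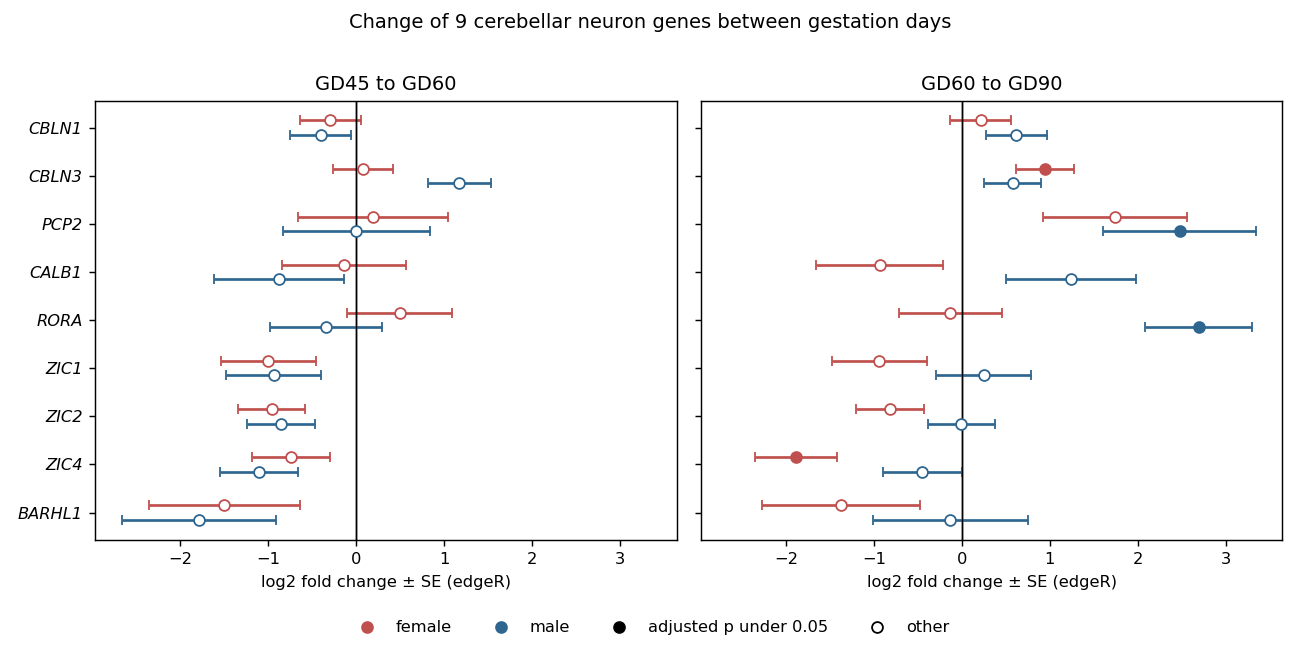
Log2 fold change with its standard error (horizontal axis, edgeR) of the 9 tested members from GD45 to GD60 (left) and from GD60 to GD90 (right), females in red and males in blue, with filled points where the adjusted p is under 0.05. Filled are CBLN3 and ZIC4 in females and PCP2 and RORA in males, all from GD60 to GD90.

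Over both sexes 4 members were called from GD60 to GD90, beside 42.4% of all genes. PCP2 rose by 2.11 (SE 0.60, adjusted p = 0.00918, edgeR), RORA by 1.28 (SE 0.42, adjusted p = 0.0214) and CBLN3 by 0.76 (SE 0.23, adjusted p = 0.0145), while ZIC4 fell by 1.17 (SE 0.32, adjusted p = 0.00743). The share of members called was close to that of all genes. The log2 fold changes of BARHL1 (-0.75, SE 0.63, adjusted p = 0.359), CALB1 (0.15, adjusted p = 0.837), CBLN1 (0.42, adjusted p = 0.184), ZIC1 (-0.34, adjusted p = 0.494) and ZIC2 (-0.41, adjusted p = 0.241) did not pass.

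Which members were called depended on the 2 high brains. Without female GD90 replicate 2 and male GD90 replicate 1, PCP2 (log2 fold change 0.41, adjusted p = 0.379, edgeR) and CBLN3 (0.52, adjusted p = 0.124) were no longer called. The log2 fold changes of ZIC4 (-1.95), RORA (1.44), ZIC1 (-1.16), ZIC2 (-0.95) and BARHL1 (-2.44) passed the threshold in this setting, with 35.5% of all genes, and for the reason given above these 5 calls are a description and no test. With male GD90 replicate 1 alone left out, ZIC1 (-0.86, adjusted p = 0.0470, edgeR), ZIC2 (-0.73, adjusted p = 0.0218) and BARHL1 (-1.74, adjusted p = 0.0303) passed the threshold. That library was the highest of its day for 8 of 10 members, so these added calls are likewise a description and no test. In the same fit PCP2 (1.24, adjusted p = 0.0657) and CBLN3 (0.62, adjusted p = 0.0507) were not called. Without female GD90 replicate 2 alone, PCP2 was not called either (1.27, adjusted p = 0.0625), and RORA lost its call without male GD60 replicate 16 (1.17, adjusted p = 0.0546) or female GD90 replicate 7 (1.03, adjusted p = 0.0755). With the libraries of 1 day and litter size summed, CBLN3 was not called (0.75, adjusted p = 0.0524).

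PCP2 was also fitted on its 2 shared exons alone, which were chosen after the reads on its exons were seen, so the values are a description and no test. The log2 fold change from GD60 to GD90 over both sexes was then 3.81 (SE 0.84, edgeR), against 2.11 on the whole gene, and it was 3.14 in females and 4.48 in males. These values rest on the 102 and 107 reads of the 2 high brains. In the exon-wise table as a whole ZIC4 holds only 4.96% of its gene-wise counts, RORA 31.7% and PCP2 54.0%. In the test on summed exon counts ZIC4 over both sexes was not called (-0.71, adjusted p = 0.140, edgeR). That test rests on few of the reads of ZIC4 and RORA and on a part of those of PCP2.

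Males and females were compared at each day. No member was called at GD45, GD60 or GD90, where 0.0919%, 0.098% and 0.098% of all genes were, and DESeq2 called none either. At an unadjusted p under 0.05 there were 0, 0 and 1 members, beside 423, 784 and 2213 of the 16325 tested genes. The 1 member was RORA at GD90, with a log2 difference of 1.80 (males minus females, SE 0.58, adjusted p = 0.350, edgeR). Fitted on the 6 libraries of GD90 alone, RORA passed (1.81, adjusted p = 0.0451). No member, and 0.0% of all genes, was called for the interaction of sex with the period from GD45 to GD60 or with that from GD60 to GD90. At an unadjusted p under 0.05 these had 1 and 2 members, beside 333 and 3232 of the 16325 tested genes. RORA had an interaction of 2.82 (SE 0.84, adjusted p = 0.183, edgeR) in the later period, and passed in DESeq2 (2.84, adjusted p = 0.0462) and in edgeR without male GD45 replicate 17 (2.81, adjusted p = 0.0230). The shares of all genes called in these alternative fits are not given here, so whether the calls are particular to RORA is not known. The rise of RORA in males but not in females from GD60 to GD90 was thus not shown to differ between the sexes by edgeR over all libraries.

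The 37 tested genes of the 3 cerebellar lists moved in both directions between days. From GD45 to GD60 over both sexes 2 rose and 9 fell, with a median log2 fold change of -0.72, and 16.7% of all genes were called with a median of -0.01. From GD60 to GD90 9 rose and 11 fell, with a median of -0.12, beside 42.4% of all genes called. In the earlier period 7 were called in females (7.22% of all genes) and 6 in males (5.61%), and in the later one 15 (27.1%) and 13 (34.5%). None was called between the sexes or for an interaction by edgeR, and DESeq2 called 2 in the later interaction. At an unadjusted p under 0.05 there were 1, 5 and 5 genes between the sexes at GD45, GD60 and GD90 by edgeR. Of the 16325 tested genes 423, 784 and 2213 did so. In the interactions there were 1 and 13 genes of the lists, beside 333 and 3232 of all tested genes.

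The largest falls of each list, named by a fixed rule, were the following. EOMES, a factor of unipolar brush cells and of cortical progenitors, fell by 1.68 (SE 0.34, adjusted p = 0.00239, edgeR) from GD45 to GD60 and by 3.64 (SE 0.41) from GD60 to GD90. The Purkinje cell factors LHX5 and EBF2 fell by 1.78 and 1.70 in the first period and by 1.26 and 1.39 in the second. LHX9, a factor of cerebellar nuclei, fell by 1.47 from GD60 to GD90, TFAP2A by 1.36, PAX6 by 0.87 and MEIS1 by 0.85 from GD45 to GD60, and MAB21L1 by 0.93 and the neuronal factor NEUROD2, which is abundant in the cortex, by 1.55 from GD60 to GD90.

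The largest rises were named by the same rule. PVALB, the calcium buffer parvalbumin of Purkinje cells and interneurons, rose by 3.65 (SE 0.53, adjusted p = 3.8e-05, edgeR) from GD60 to GD90. GABRD, a GABA-A receptor subunit of granule cells and other neurons, rose by 1.49 from GD45 to GD60 and by 1.86 from GD60 to GD90. ITPR1, the IP3 receptor, rose by 1.27 and 1.16 in these periods, and the glutamate receptor gene GRM4 by 0.75 in the later one. Of the Purkinje cell list 6 of 14 rose and 3 fell from GD60 to GD90, of the granule list 3 of 12 rose and 4 fell, and of the third list none of 11 tested rose and 4 fell, where 42.4% of all genes were called.

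Close relatives of the members were measured beside them. Of 13 paralogs, 2 rose and 2 fell from GD45 to GD60, and 6 rose and 1 fell from GD60 to GD90, over both sexes, beside 16.7% and 42.4% of all genes called. The GABA-A receptor gene GABRA4, which is widely used in the forebrain, rose by 1.39 from GD60 to GD90, and GABRA5 and GABRA3 rose by 1.23 and 0.48 from GD45 to GD60. BARHL2, a relative of BARHL1, fell by 1.08 from GD45 to GD60 and by 0.96 from GD60 to GD90. RORB, a relative of RORA in cortex and thalamus, had 18.0 to 25.4 CPM in the 3 males and 3.18 to 13.1 CPM in the 3 females at GD90. How many of all genes, or of the other paralogs, had no overlap between the sexes was not counted. Of the 13 paralogs 0 were called between the sexes at GD90 by edgeR. An unadjusted p under 0.05 was found for 4 of them, beside 2213 of the 16325 tested genes. Female GD90 replicate 2 and male GD90 replicate 1 were both above the other 4 libraries for 3 of the 13 paralogs.

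The lists of other tissues changed between days as well. From GD45 to GD60 over both sexes, 8 of 9 tested hindbrain and spinal cord genes fell, 4 of 7 thalamus genes fell and 1 rose, 2 of 8 telencephalon genes fell and 1 rose, 1 of 8 meninges genes fell, 1 of 6 choroid plexus genes fell and 3 of 6 erythroid genes fell. From GD60 to GD90 the counts were none of 9 hindbrain and spinal cord genes, 2 risen and 2 fallen for the thalamus, 5 fallen for the telencephalon, 1 risen and 2 fallen for the meninges, 3 fallen for the choroid plexus and 3 fallen for the erythroid list. Of all genes, 16.7% and 42.4% were called in these periods. The part of these lists in the changes of the members was not tested.

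Genes whose levels followed those of the members most closely over the 18 libraries were found by the root mean square difference of centred log2 CPM. For ZIC2 the nearest non-member was ZIC5 (0.29), another gene of the family, before MEIS1 (0.30) and PAX6 (0.33). ZIC1 had EBF1 (0.37), ZIC5 (0.45) and LHX1 (0.46), and ZIC4 had BARHL2 (0.38), MAB21L1 (0.45) and CENPF (0.45). CBLN1 was nearest to NEUROD1 (0.25), followed by DUSP5 and MEGF11 (0.30 each). Among the members, ZIC1 and ZIC2 were nearest to each other (0.24).

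For BARHL1 the nearest genes were UNCX (0.54), EN2 (0.57) and SP5 (0.60), against 1.68 for the departure of BARHL1 from its own mean. CALB1 had COL2A1 (0.53), CA12 (0.61) and CNPY1 (0.61), and PCP2 had GAL (0.65), ADRA2C (0.65) and CA8 (0.69). CBLN3 was followed by HSD11B1 (0.28), EGLN3 (0.30) and TRIM22 (0.30), and RORA by CHRM3 (0.38), PCDH7 (0.41) and DDR2 (0.41).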

How the data were processed

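RNA of 18 whole fetal pig brains was sequenced. After trimming by Trimmomatic and alignment to Sscrofa11.1 by HISAT2, the authors deposited raw read counts per gene, exon and transcript from featureCounts on the Ensembl annotation. Options for strand and for shared reads are not given in the sources used here. Of the bases of CBLN3, 144 lie in exons of KHNYN on the other strand, and of PCP2, 10 in those of PET100.

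The 2 runs of 4 libraries were summed and the transcript table was not used. Gene counts were filtered with filterByExpr, scaled by TMM and fitted in 1 model of 6 groups with edgeR 4.0.16 (R 4.3.3), by quasi-likelihood tests with Benjamini-Hochberg adjustment over 16325 genes. For log2 CPM the prior count was 2, and FPKM were computed from the CPM and the gene lengths in the table. The test was checked on simulated counts for GD90 against GD60 in males, where it recovered 97% of 200 genes with a log2 fold change of 2 among 15980 genes, with 6 false calls. The simulation gave every gene the same dispersion and had no outlying libraries. In the data the median within-group standard deviation of log2 CPM was 0.76 for the members and 0.28 for all tested genes. The recovered share therefore does not describe the members. Sequences come from the RefSeq assembly of the same build, read with pysam 0.24.0, and 65 of 76 member exons shared an edge with RefSeq.

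The members and all gene lists were chosen with earlier results of these data known. Genes of lists were named by rule: per cerebellar or paralog list and period, up to 2 of the largest rises and falls among those called over both sexes, and the 3 nearest genes of each member with a mean of at least 1 CPM. Some genes and 1 sequence that the rule would give are not reported here. Genes named outside this rule were chosen after their values were seen. Alternatives were DESeq2 1.42.0, other library scaling and filters, summed exon counts, only the 6 libraries compared, litter size as a block or summed, and each library left out. Counting limits treat reads as independent molecules, and no molecular identifiers were used.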

Additional observations from a re-analysis of the deposited data

Results flagged for a closer look

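The gap between the outermost of the 6 libraries of a day and its neighbour was compared with the range of the 6 for each member and day, and 4 of 30 such groups had a ratio above the critical value of Dixon's test for 6 samples. For independent values with a normal distribution, chance alone gives about 1 in 20. The ratios were taken on CPM without logs, and groups of different members share the same libraries, so this rate need not hold here. GABRA6 at GD45 had 0.357 CPM (7 reads) in female replicate 12, and the next library had 0.0527 CPM (1 read). CBLN3 at GD60 had 2.37 CPM in male replicate 16, next to 1.62 CPM. ZIC4 at GD90 had 66.3 CPM in male replicate 1, and the next, female replicate 2, had 28.4 CPM. BARHL1 at GD45 had 8.71 CPM in male replicate 14, below 32.2 CPM in the library next to it.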

How the results depend on the processing

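Each test was repeated under the alternatives, and no called member reversed its direction in any of them. From GD45 to GD60, the members called in females went from 0 to 2 with only the 6 libraries compared (BARHL1 and ZIC2) and to 1 without both GD90 libraries of litter size 10. In males the count went from 0 to 1 in that setting and to 0 to 1 with single libraries left out. Over both sexes it went from 1 to 3 with no filter on low counts, to 2 in DESeq2, to 0 with libraries of 1 day and litter size summed, to 4 without both GD90 libraries, and to 0 to 4 with single libraries left out. From GD60 to GD90, the members called in females went from 2 to 1 without TMM factors, with no filter and on exon counts, to 4 without both GD90 libraries, and to 1 to 2 with single libraries left out. In males they went from 2 to 1 on exon counts and to 1 to 3 with single libraries left out, and over both sexes from 4 to 2 on exon counts. RORA made the count 1 in place of 0 for males against females at GD90 with only the 6 libraries compared, and for the later interaction in DESeq2 and, leaving out single libraries (0 to 1), without male GD45 replicate 17. For other cerebellar genes, leaving out single libraries gave 3 to 8 called from GD45 to GD60 in females and likewise 3 to 8 in males, where only the 6 libraries compared gave 0. In males against females at GD90 the latter fit gave 1 in place of 0, and in the later interaction DESeq2 gave 2 and single libraries left out 0 to 5. Of all genes, 16.7% were called over both sexes from GD45 to GD60, and 14.6% without both GD90 libraries of litter size 10. From GD60 to GD90 these shares were 42.4% and 35.5%. The shares of all genes in the other alternatives are not given here, so whether a shift is particular to the members is not known. The cause of the differences between settings was not tested, except that fewer samples enter where libraries are left out. Litter size as a block could be fitted only for the comparisons between the sexes and the interactions, where the count of members called was 0 with and without it. The labels give no litters, but libraries that share a day and a litter size carry consecutive piglet numbers. Across genes, the deviations from the mean of each group of sex and day correlated at -0.09 to 0.42 in these 9 pairs. The pair of litter size 10 at GD90 had 0.33. These values do not settle whether the libraries of a pair are littermates. Tests over both sexes treat them as independent, except where libraries of 1 day and litter size were summed. Mean CPM by day without TMM factors moved by less than 1 SD for all 10 members. GABRA6, with at most 44 reads, RORA in male GD45 replicate 17, with 3, and the hindbrain and spinal cord list at GD90 are limited by depth.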
